A study of Homo sapiens with 8 samples.

Results

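Stiff collagen gels were compared with soft gels of collagen and basement membrane in 4 of the 8 RNA-seq libraries of a study of MCF10A cells, a spontaneously immortalized line of human breast epithelium that is not malignant. All cells had spent 7 days inside a hydrogel. Soft col:rBM gels held a low density of col-1 (type 1 collagen from rat tail) together with rBM, a reconstituted basement membrane. Stiff col gels held col-1 at a higher density and no rBM. From soft to stiff, col-1 density and stiffness thus rose while rBM was lost, and these changes cannot be told apart. All wells had been coated beforehand with gelled rBM, in both gels. The other 4 libraries came from interpenetrating networks (IPNs) of alginate and rBM without col-1, soft or made stiff by calcium crosslinks, and serve only for the comparison at the end. Each gel had 2 libraries, from 2 independent trials that share their replicate number. The libraries were chosen by their gel labels and not by any measured value, and of the 25369 genes listed, the 12982 with at least 10 normalized counts in at least 2 of the 4 collagen gel libraries were tested. A normalized count is a read count multiplied by a factor for its library, so it compares libraries within a gene but not genes with each other.

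Breast epithelium normally rests on a basement membrane of laminins and type 4 collagen, to which integrin alpha6 beta4 anchors it through hemidesmosomes. Type 1 collagen belongs to the stroma, and epithelial cells bind it through integrins such as alpha1 beta1 and alpha2 beta1. Fibronectin, secreted proteases and their inhibitors remodel the stroma, and inflamed or wounded epithelium secretes chemokines under control of the transcription factor NF-kB.

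The marker genes of the line were measured first. The basal markers KRT5, KRT14, KRT17, TP63, ITGB4, CDH3, EGFR and S100A2 were detected in all 4 libraries and summed to between 129033 and 188921 normalized counts, while 10 luminal markers summed to between 9675 and 18272. Of 8 fibroblast markers, COL1A2, COL3A1, LUM and THY1 were at or under 3 reads in every library, as were CDH5, VWF and CLDN5 among 6 endothelial and PTPRC, CD3E and CD79A among 7 leukocyte markers. The remaining endothelial markers KDR, TEK and PECAM1 were above this limit in at least 1 library, and the 6 summed to 451 and 163 normalized counts in soft col:rBM and 407 and 168 in stiff col. Of the leukocyte markers CD14, CD68, LYZ and CSF1R were detected, and the 7 summed to between 1370 and 5827, most of it CD68. Between 14377463 and 18583116 reads per library fell on genes, and 3 reads corresponded to between 2.41 and 3.73 normalized counts. The library factors ran from 0.804 to 1.242, so that values of a few counts carry counting error of their own.

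The trials differed more than the gels. The first principal component of the 4 libraries, with 79.2% of the variance, separated trial 1 from trial 2, and the next, with 15% of the variance, separated soft col:rBM from stiff col. The median absolute shift between trials was 0.381 on the log2 scale, against 0.14 for the median absolute change between gels, and in 10003 genes the shift between trials was the larger. Across the 12982 genes the shift between trials in the soft gel correlated with that in the stiff gel at r = 0.85, and the change between gels in trial 1 with that in trial 2 at r = 0.41, both given as descriptions since genes of the same library are not independent. Each gene was therefore compared within trials, in limma with the trial as a block.

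From soft col:rBM to stiff col, 970 genes (7.47% of those tested) passed an adjusted p of 0.05 in limma's test, 419 higher (3.23%) and 551 lower (4.24%). All 970 changed with the same sign in both trials, but the paired test nearly requires this. The shared sign is therefore no separate evidence that the trials agree. Of the 970 genes, 503 did not overlap between the gels, against 2458 of all genes tested. Most changes were small. The median absolute log2 fold change of the called genes was 0.448, and 107 genes changed by at least 1, of which 62 were higher and 45 lower. The median over all genes tested was -0.005. These calls rest on the pairing of the trials and on the variance that limma shares among genes of like abundance, since the paired fit leaves 1 residual degree of freedom per gene. Without the block 0 genes were called, although 128 had an unadjusted p under 0.05, against 2942 with the block. Without the mean-variance trend 0 genes were called and 2002 had an unadjusted p under 0.05. The words higher, lower, rose and fell below refer to the paired fit with the trend. Values given without a library come from fits without the block, so the shift between trials enters them.

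**Figure D1:**
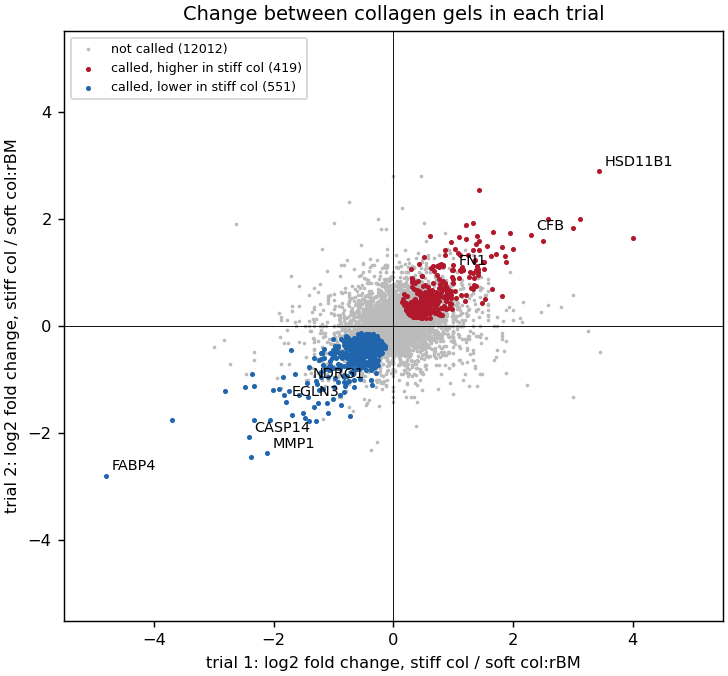
Log2 fold change from soft col:rBM to stiff col in trial 1 (horizontal) and in trial 2 (vertical), 1 point per gene tested, with genes called higher in red, genes called lower in blue and the others in grey. The 419 genes called higher lie in the upper right and the 551 called lower in the lower left, as the paired test nearly requires. The wide grey cloud holds genes that were not called, some with the same sign in both trials and some with opposite signs.

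Grouped by function, the called genes of cytokine signalling, of interstitial matrix and of the antioxidant response were nearly all higher in stiff col, while those of hypoxia and glycolysis and of epithelial junctions were all lower. Over all genes tested 3.23% were called higher and 4.24% lower. The cytokine, chemokine and NF-kB list had 15 of 35 tested members higher and 0 lower, the fibronectin and fibrillar matrix list 12 of 24 higher and 1 lower, and the NRF2 and metallothionein list 13 of 26 higher and 1 lower. Of 36 hypoxia and glycolysis genes 21 were lower and 0 higher, and of 26 epithelial junction genes 12 were lower and 0 higher. The medians of these lists were 0.444, 0.462, 0.391, -0.298 and -0.334 in that order. They kept their sign in trial 1 alone, in trial 2 alone and without any of the 4 libraries, and the lists were drawn up with earlier results of these libraries known.

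**Figure D2:**
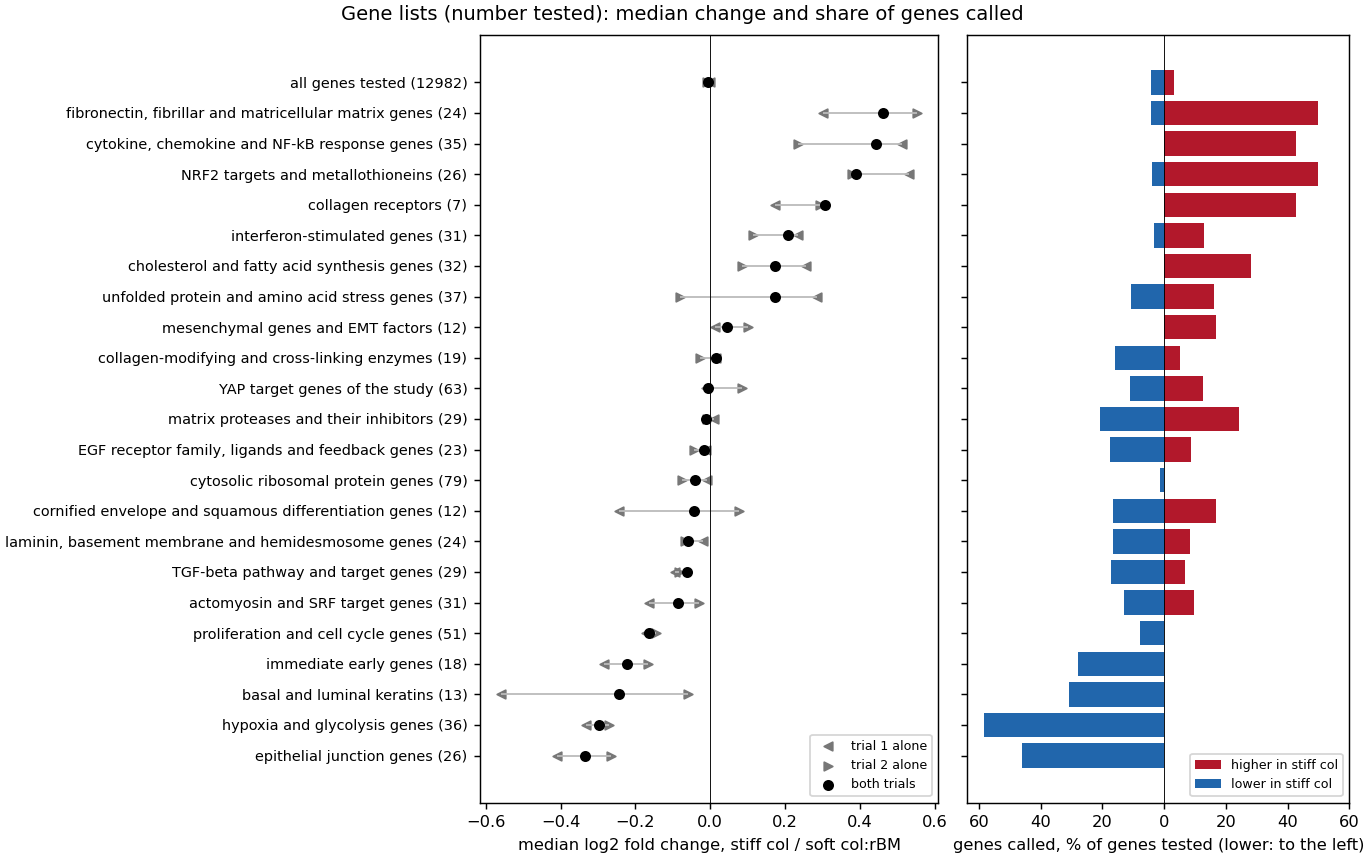
Gene lists with the number of members tested, sorted by the median log2 fold change from soft col:rBM to stiff col (left panel; dot, both trials; triangles, each trial alone) and the share of tested members called higher (red, to the right) or lower (blue, to the left) in the right panel. All genes tested stand at the top at -0.005, the matrix, cytokine and NRF2 lists follow with the highest medians, and the hypoxia and junction lists stand at the bottom.

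Of the chemokine genes, CXCL8, CXCL1, CXCL2, CXCL3 and CCL20 rose, whereas CXCL5, CXCL14, CXCL16 and CCL28 were not called, with log2 fold changes of 0.44, -0.16, 0.02 and -0.66. CXCL8 (hg19 chromosome 4, 74606236 to 74609433), which encodes the neutrophil attractant IL-8, had 608 and 288 normalized counts in soft col:rBM and 2356 and 957 in stiff col (trials 1 and 2). The gels did not overlap, and each trial showed a rise of similar size, by 1.95 and 1.73 on the log2 scale. The log2 fold change came to 1.84 ± 0.09 (standard error of the fit; adjusted p = 2.35e-08 in limma), and it lay between 1.19 and 2.49 without any of the 4 libraries. CCL20, the ligand of CCR6 on lymphocytes and dendritic cells, had 250 and 231 normalized counts in the soft and 914 and 569 in the stiff gels (log2 fold change 1.58). CXCL1, a further neutrophil attractant, went from 257 and 282 to 594 and 1038 (1.54), with the larger rise in trial 2. Its neighbours CXCL2 and CXCL3, so alike in sequence that their reads could be exchanged, rose by 0.99 and 1.07.

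Growth factors of the myeloid lineage rose as well. CSF1, which sustains macrophages, had 101 and 120 normalized counts in soft col:rBM and 227 and 249 in stiff col, and the paired values stood close together in each gel (log2 fold change 1.10, adjusted p = 0.000205 in limma). CSF3, which drives granulocyte production, was already abundant at 5597 and 3068 and reached 9005 and 4059, a smaller rise of 0.54 with overlap between the gels because trial 1 was higher in both. LIF, a cytokine of the IL-6 family, had 25 normalized counts in each soft library and 61 and 64 in the stiff ones (1.29). IL24 rose by 1.19 but by 1.82 in trial 1 and 0.56 in trial 2.

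Inhibitors that NF-kB itself induces moved in the same direction as the chemokines. BIRC3, an inhibitor of apoptosis, had 674 and 1013 normalized counts in soft col:rBM and 1935 and 2130 in stiff col, a rise of 1.30 ± 0.10 on the log2 scale (adjusted p = 8e-06 in limma). TNFAIP3, which encodes the ubiquitin-editing enzyme that restrains NF-kB, went from 616 and 864 to 1139 and 1201 (0.68), and TNFAIP2 rose by 0.52. Not every member of the list moved. NFKBIA, the gene of the inhibitor IkB alpha, had a log2 fold change of 0.17 (adjusted p = 0.185 in limma), ICAM1 one of 0.33 (adjusted p = 0.0671) and the abundant complement gene C3 one of 0.04 (adjusted p = 0.754), and IL1B had one of 0.23 (adjusted p = 0.093).

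Acute phase and complement genes were among the largest rises of the comparison. CFB (hg19 chromosome 6, 31913427 to 31919863), factor B of the alternative complement pathway, had 97 and 147 normalized counts in soft col:rBM and 483 and 477 in stiff col. The stiff libraries were nearly equal, and both stood over 3 times above either soft library, a 3.99-fold rise (standard error on the log2 scale 0.14, adjusted p = 2.11e-06 in limma). SAA1 and SAA2 encode serum amyloid A proteins and are near-identical, so that their reads may be divided between them with error. SAA1 went from 373 and 696 to 808 and 1746 (1.22) and SAA2 from 24 and 16 to 66 and 98 (1.98). C1S, a protease of the classical pathway, had 47 and 31 normalized counts in the soft and 120 and 121 in the stiff gels (1.63), and its partner C1R, added after its values were seen, rose by 1.41. S100A8 and S100A9, which together form the antimicrobial protein calprotectin, rose by 1.46 and 1.29 with no overlap between gels. FPR1, the receptor for formylated peptides of bacteria, had 66 and 25 normalized counts in the soft and 196 and 72 in the stiff gels (1.52). Beside these rises, the summed leukocyte markers stood at 4891 and 1370 normalized counts in stiff col against 5827 and 1822 in soft col:rBM. Among them CD68 and CSF1R were lower (-0.32 and -0.85), and CD14 and LYZ were not called (0.40 and 0.41). As the RNA was extracted from whole gels, more expressing cells and more RNA per cell cannot be told apart here or in any result that follows.

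**Figure D3:**
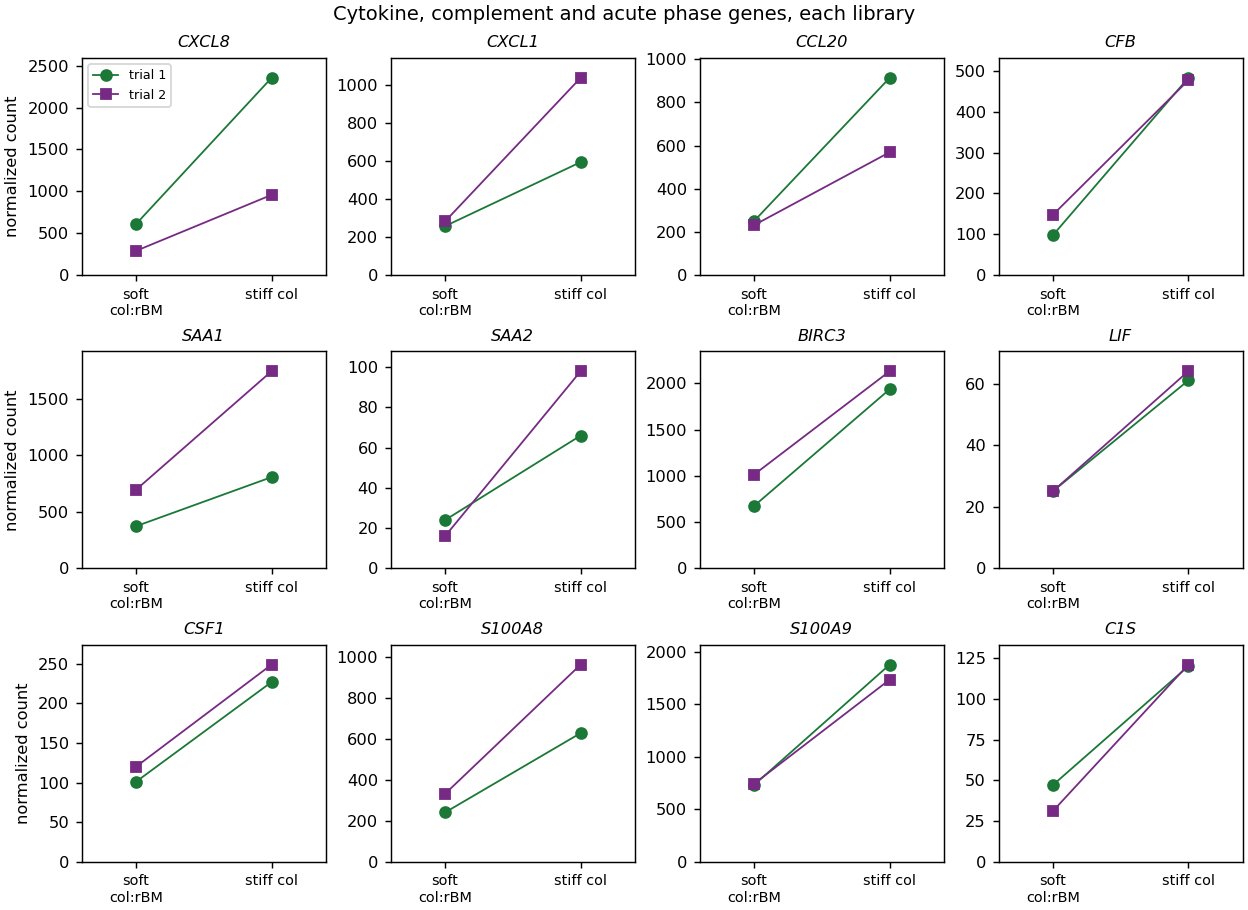
Normalized counts (vertical axes, each from 0) of 12 cytokine, complement and acute phase genes in soft col:rBM and stiff col, 1 point per library, with lines joining the libraries of the same trial. Every line slopes upward, and in CFB and C1S the stiff col libraries of both trials nearly coincide at 483 and 477 and at 120 and 121.

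Promoters of the called cytokine genes are shown because NF-kB acts on many of them. RefSeq promoter windows (GRCh38.p14), which run from 250 bases before to 50 bases after the start of a gene, were found for 10 of the 15 called members. The NF-kB consensus, searched on both strands, occurred in 7 of these 10 (70.0%), namely BIRC3, CCL20, CFB, CXCL1, CXCL2, CXCL3 and TNFAIP3. It occurred in 13.3% of the windows of all 27305 genes and in 17.3% of those of the 9575 tested genes with a window. It was not in the windows of CXCL8, IL24 and TNFAIP2 in these letters. A match is a description of the sequence and was not measured as a bound site. The list was written from known NF-kB response genes, so its share could lie above these values whatever the gels did. No share was worked out for the members that were not called, and the share therefore says nothing about the gels. Windows of 3 of the largest rises are given 5′ to 3′ on the strand of the gene, with the matches in capitals. They lie at chr6:31945845-31946144 (plus strand, CFB), chr2:227813592-227813891 (plus strand, CCL20) and chr4:73869143-73869442 (plus strand, CXCL1), and in CXCL1 the capitals cover overlapping matches on both strands.
CFB: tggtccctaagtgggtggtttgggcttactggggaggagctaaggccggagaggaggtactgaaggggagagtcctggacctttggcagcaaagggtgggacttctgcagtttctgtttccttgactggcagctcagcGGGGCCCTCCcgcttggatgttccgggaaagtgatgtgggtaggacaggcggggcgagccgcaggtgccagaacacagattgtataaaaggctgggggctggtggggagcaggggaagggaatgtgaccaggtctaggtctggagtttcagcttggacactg
CCL20: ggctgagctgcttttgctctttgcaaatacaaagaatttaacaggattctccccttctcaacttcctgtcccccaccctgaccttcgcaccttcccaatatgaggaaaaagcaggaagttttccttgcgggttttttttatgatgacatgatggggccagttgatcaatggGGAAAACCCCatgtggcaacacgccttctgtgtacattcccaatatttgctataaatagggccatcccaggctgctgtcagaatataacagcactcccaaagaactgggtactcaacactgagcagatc
CXCL1: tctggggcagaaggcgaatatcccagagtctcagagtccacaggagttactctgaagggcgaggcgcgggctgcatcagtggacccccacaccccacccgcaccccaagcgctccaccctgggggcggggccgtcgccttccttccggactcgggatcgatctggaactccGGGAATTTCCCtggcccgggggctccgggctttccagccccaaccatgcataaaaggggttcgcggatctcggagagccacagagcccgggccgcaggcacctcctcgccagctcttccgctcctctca

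Hypoxia and glycolysis genes were lower, with 21 of 36 called (58.3%, against 7.47% of all genes tested). All 36 members tested had a negative log2 fold change, from -1.60 to -0.06. EGLN3 (hg19 chromosome 14, 34393433 to 34931980), a prolyl hydroxylase that marks HIF for degradation and is itself a target of HIF, had 1719 and 2676 normalized counts in soft col:rBM and 496 and 1004 in stiff col. No stiff library reached the lower soft library, and EGLN3 changed by -1.60 ± 0.09 on the log2 scale (adjusted p = 2.31e-07 in limma). NDRG1, a stress-responsive gene that is also on the study's list of YAP targets, had 23366 and 36173 normalized counts in the soft and 8596 and 17279 in the stiff gels and changed by -1.25.

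Genes of the entry into glycolysis and of its lower steps were both among the falls. PFKFB4, which makes an activator of phosphofructokinase, had 507 and 653 normalized counts in soft col:rBM and 285 and 315 in stiff col (log2 fold change -0.94), and PFKFB3 of the same family changed by -0.61. HK2, the inducible hexokinase, went from 1289 and 2039 to 810 and 1101 (-0.78), and SLC2A1, the glucose transporter GLUT1, from 3595 and 4078 to 2300 and 2492 (-0.68). The gels did not overlap in HK2 or SLC2A1. Abundant enzymes further down changed by less, such as GAPDH with -0.32 (180302 and 156548 in the soft, 143348 and 126448 in the stiff gels), TPI1 with -0.31, LDHA with -0.29, ALDOA with -0.28 and PKM with -0.23, and all of these were called. ENO1 had a log2 fold change of -0.15, PGAM1 of -0.12 and GPI of -0.14, and these were not called. The difference in size between upper and lower steps was not tested.

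Secreted and membrane proteins of the hypoxia response fell too. CA9, the carbonic anhydrase of hypoxic cells, had 1408 and 1480 normalized counts in soft col:rBM and 894 and 837 in stiff col (log2 fold change -0.74, adjusted p = 4.65e-05 in limma), and the replicates of each gel were close. CA12 changed by -0.46, the vasodilator gene ADM by -0.76 (766 and 1657 in the soft, 481 and 923 in the stiff gels) and VEGFA by -0.31. ENO2 fell from 574 and 166 to 330 and 79 within the trials (-0.93), but trial 1 was so much higher that its log2 fold change was 0.10 without stiff col replicate 2. HIF1A, which is not on the list and was added after its values were seen, encodes the oxygen-regulated subunit of HIF, is controlled largely at the protein level and was slightly higher in stiff col at 4337 and 6221 against 3559 and 5208 (0.27, adjusted p = 0.0313 in limma).

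**Figure D4:**
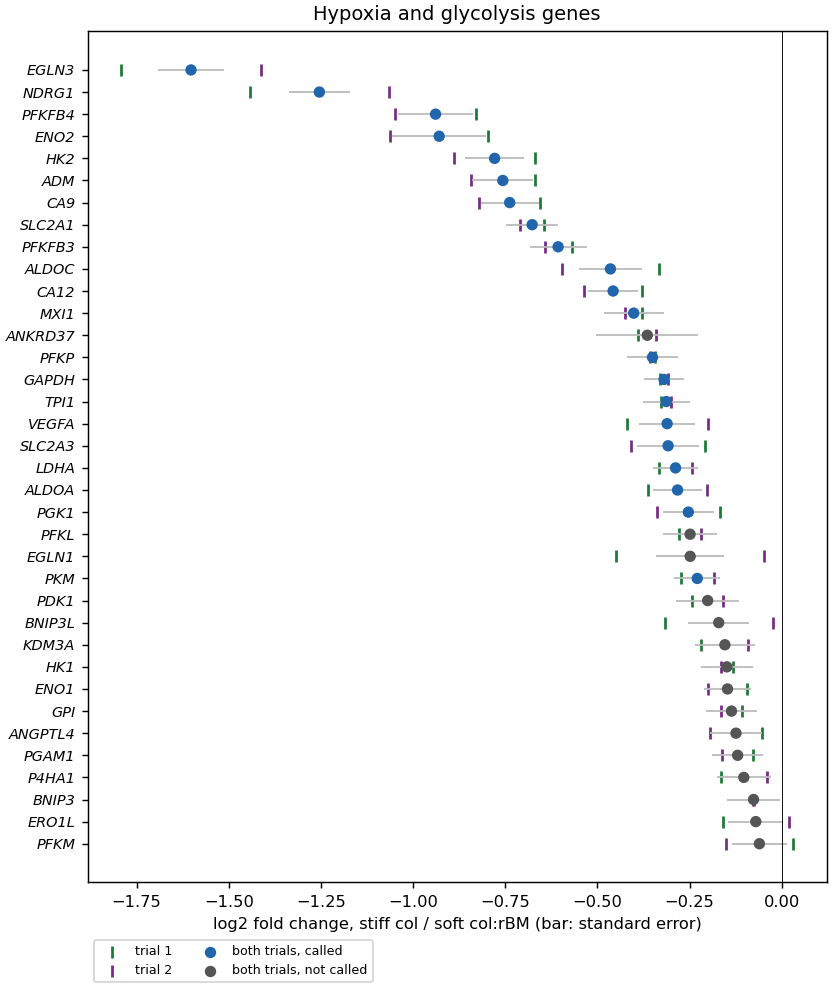
Log2 fold change from soft col:rBM to stiff col of the 36 hypoxia and glycolysis genes tested (dots with standard errors; blue, called lower; grey, not called), with ticks for trial 1 and trial 2. Every dot lies left of 0, from -1.60 in EGLN3 to -0.06 in PFKM, and the ticks of trial 1 and 2 fall on both sides of 0 only in genes near it.

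Promoters of this group are shown because HIF binds a short core element. The hypoxia response element core ACGTG, searched on both strands, occurred in 12 of the 18 called members with a RefSeq window (66.7%), against 24.9% of all 27305 genes and 32.4% of the tested genes with a window. Matches on opposite strands can overlap. The list was written from genes known for hypoxia and glycolysis, so its share could lie above these values whatever the gels did. As no share was worked out for the members that were not called, the share of the called ones says nothing about the gels. EGLN3, SLC2A1 and CA12 were among the 6 called members without it in these letters. The windows of ENO2, CA9 and ALDOC are printed 5′ to 3′ on the strand of the gene (GRCh38.p14) with matches in capitals, from chr12:6914330-6914629 (plus strand), chr9:35673678-35673977 (plus strand) and chr17:28576846-28577145 (minus strand).
ENO2: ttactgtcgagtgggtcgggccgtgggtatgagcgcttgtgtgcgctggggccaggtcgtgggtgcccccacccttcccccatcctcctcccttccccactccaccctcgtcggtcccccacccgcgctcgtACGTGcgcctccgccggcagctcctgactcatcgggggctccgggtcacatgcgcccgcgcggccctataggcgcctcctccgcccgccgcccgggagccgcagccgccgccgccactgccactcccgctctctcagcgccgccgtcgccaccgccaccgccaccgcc
CA9: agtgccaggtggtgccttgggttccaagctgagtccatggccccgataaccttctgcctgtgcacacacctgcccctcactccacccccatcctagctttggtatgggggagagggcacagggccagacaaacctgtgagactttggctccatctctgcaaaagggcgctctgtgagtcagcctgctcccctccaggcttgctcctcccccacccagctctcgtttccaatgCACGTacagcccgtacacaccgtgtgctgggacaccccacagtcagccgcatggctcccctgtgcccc
ALDOC: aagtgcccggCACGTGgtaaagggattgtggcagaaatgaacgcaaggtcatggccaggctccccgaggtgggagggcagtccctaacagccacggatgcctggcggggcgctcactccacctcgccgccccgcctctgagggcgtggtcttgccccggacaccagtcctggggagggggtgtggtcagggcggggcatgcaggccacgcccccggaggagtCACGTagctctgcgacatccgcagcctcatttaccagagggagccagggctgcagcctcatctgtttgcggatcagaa

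Of 24 tested genes of the interstitial matrix and its receptors, 12 were higher in stiff col, 1 was lower and 11 were not called. The share called was 54.2%, against 7.47% of all genes tested. FN1 (hg19 chromosome 2, 216225163 to 216300796), which encodes fibronectin, had 28969 and 11569 normalized counts in soft col:rBM and 57569 and 23828 in stiff col. It rose by almost the same amount in each trial, 0.99 and 1.04, so that the paired log2 fold change was 1.02 ± 0.06 (adjusted p = 3.15e-07 in limma). The gels overlapped because trial 1 had more FN1 in both, and the value was 0.35 without soft col:rBM replicate 2 and 1.68 without soft col:rBM replicate 1. SPARC, a collagen-binding matricellular protein, went from 595 and 222 to 1510 and 517 (1.28). DCN, the collagen-binding proteoglycan decorin, had 615 and 526 normalized counts in the soft and 1217 and 1085 in the stiff gels (1.01), with no overlap. DCN is also among the fibroblast markers, which summed to 1468 and 1308 in stiff col against 958 and 775 in soft col:rBM. COL1A1 had 333 and 244 normalized counts in soft col:rBM and 242 and 214 in stiff col and was not called (-0.32, adjusted p = 0.126 in limma).

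Some minor collagens and some integrins that bind fibronectin or latent TGF-beta were also higher. COL6A3, COL8A1, COL12A1 and COL16A1 rose by 0.84, 0.72, 0.64 and 0.69, each with no overlap between gels, for example from 377 and 275 to 688 and 481 normalized counts in COL6A3. FSTL1, a secreted glycoprotein of the follistatin family, rose by 0.82 and the thrombospondin gene THBS1 by 0.40. The integrin genes ITGAV and ITGB6 rose by 0.52 and 0.59. COL5A2, COL6A1 and COL6A2 had log2 fold changes of 0.12, 0.10 and -0.27, and ITGA5, the alpha chain of the fibronectin receptor, and ITGB5 of -0.07 and -0.0037, and none of these was called. ITGB3, with 433 and 22 normalized counts in soft col:rBM and 717 and 49 in stiff col, differed far more between trials than between gels, so its log2 fold change of 0.92 turned to -1.20 without soft col:rBM replicate 2. TGFBI, an abundant matrix protein, was the member that fell, from 62653 and 52236 to 45896 and 43472 (-0.36).

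Of the receptors for collagen, ITGA1, ITGA2 and ITGA10 rose modestly. ITGA1, the alpha1 chain of a collagen receptor, had 303 and 189 normalized counts in soft col:rBM and 560 and 265 in stiff col, with overlap (log2 fold change 0.68, adjusted p = 0.0029 in limma). ITGA2, the alpha2 chain, went from 2428 and 2534 to 2730 and 3449 (0.31) with no overlap, and ITGA10 rose by 0.45 but stood at -0.28 without stiff col replicate 1. The shared beta1 chain ITGB1 had a log2 fold change of 0.15 and the collagen-binding kinase gene DDR1 of -0.09, and neither was called. With 3 of 7 tested members higher (42.9%, against 7.47% of all genes tested), the list had a median of 0.307. The median stood at -0.004 without stiff col replicate 1.

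Some genes that tie the cell to a basement membrane were lower, namely ITGB4, COL17A1, DST and ITGA6, whereas the type 4 collagen genes COL4A1 and COL4A2 were higher. ITGB4, the beta4 chain of the laminin receptor in hemidesmosomes, had 59921 and 27008 normalized counts in soft col:rBM and 33628 and 15995 in stiff col (log2 fold change -0.79 ± 0.06, adjusted p = 2.92e-06 in limma). Its change was -0.83 in trial 1 and -0.76 in trial 2. The gels overlapped because trial 1 had more ITGB4 in both, and the value ran from -1.37 without soft col:rBM replicate 2 to -0.22 without soft col:rBM replicate 1. COL17A1, a transmembrane collagen of the hemidesmosome, went from 36245 and 25367 to 22538 and 17783 (-0.60), DST, which links hemidesmosomes to keratin filaments, changed by -0.67, and ITGA6, the partner of ITGB4, by -0.44. COL4A1 and COL4A2, the type 4 collagen chains, rose by 0.49 and 0.58, for example from 1854 and 1061 to 2940 and 1506 normalized counts in COL4A2. No laminin chain gene was called, nor were ITGA3, CD151, DAG1 and PLEC or the collagen genes COL4A5, COL4A6, COL7A1 and COL18A1. Over the 24 tested members 2 rose and 4 fell, while 7.47% of all genes tested were called. The list's median was -0.059. It ran from -0.275 without stiff col replicate 1 to 0.151 without stiff col replicate 2, so its sign depended on single libraries.

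Collagen cross-linking enzymes were lower or did not pass the test. LOX and LOXL2, which cross-link collagen by oxidizing lysines, changed by -0.47 and -0.45, and LEPREL1, a collagen prolyl 3-hydroxylase, by -0.58. LEPREL2 of the same family rose by 0.61. LOX had 6587 and 3325 normalized counts in soft col:rBM and 4987 and 2277 in stiff col, so the gels overlapped. Within trials 1 and 2 LOX changed by -0.40 and -0.55, LOXL2 by -0.25 and -0.64 and LEPREL1 by -0.43 and -0.73. LEPREL2 rose by 0.84 and 0.37. In fits without 1 library, which lose the pairing, the direction of all 4 turned. The values were then 0.09 in LOX and 0.34 in LOXL2 and LEPREL1 without stiff col replicate 2. In LEPREL2 the value was -0.33 without stiff col replicate 1.

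Matrix proteases split by family member. MMP1 (hg19 chromosome 11, 102660132 to 102668891), the interstitial collagenase, had 142 and 77 normalized counts in soft col:rBM and 32 and 14 in stiff col, and MMP10, a stromelysin encoded nearby, 120 and 53 against 31 and 23. Both changed on the log2 scale, MMP1 by -2.25 ± 0.23 (adjusted p = 3.33e-05 in limma) and MMP10 by -1.54, and neither overlapped between gels. The gelatinase gene MMP2 rose from 263 and 143 to 438 and 219 (0.67). MMP9, the other gelatinase gene, had 0 and 8 normalized counts in the soft and 15 and 27 in the stiff gels, and since it entered the test only through the gels in which it was high, no fold or p is given for it. The inhibitor gene TIMP1 rose from 9868 and 8117 to 18453 and 12538 (0.77) and TIMP2 by 0.31, while TIMP3 changed by -0.58. The urokinase gene PLAU rose by 0.48. Across 29 tested members 7 were called higher, MMP9 among them, and 6 lower (44.8% called, against 7.47% of all genes tested).

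**Figure D5:**
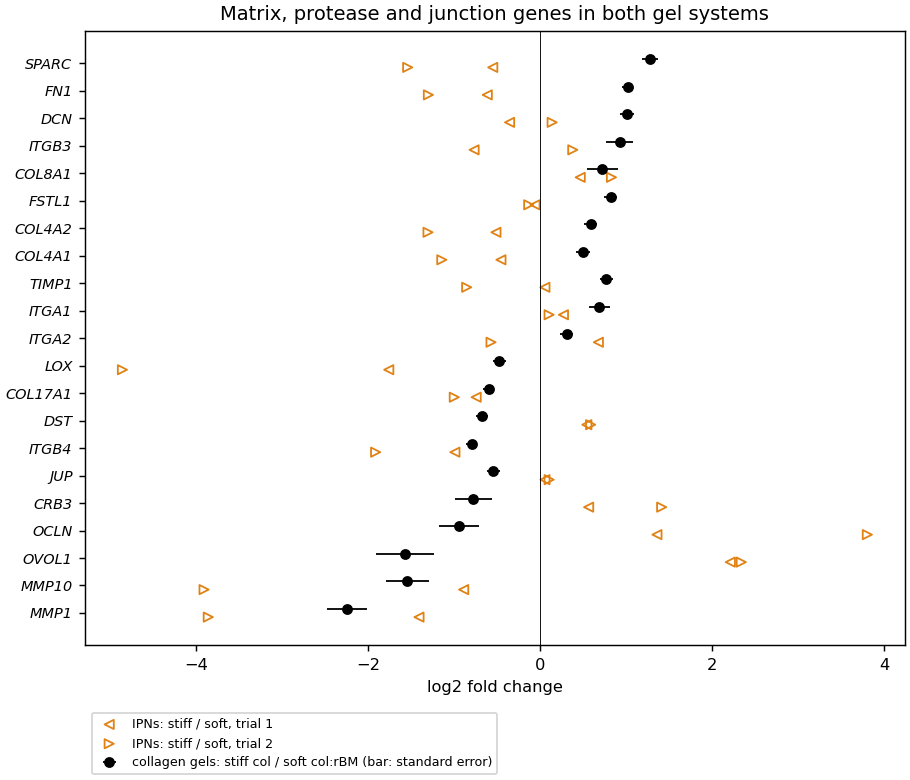
Log2 fold changes of 21 matrix, protease and junction genes, in the collagen gels (black, stiff col against soft col:rBM, bars standard errors) and in the IPNs (orange triangles, stiff against soft, each trial). FN1, SPARC and COL4A2 lie right of 0 in the collagen gels and left of 0 in both IPN trials, OVOL1, OCLN and CRB3 the reverse, and MMP1 and MMP10 lie left of 0 in both systems.

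Epithelial junction genes were lower by small amounts, with 12 of 26 called (46.2%, against 7.47% of all genes tested). Of 26 tested members 23 had a negative log2 fold change. JUP, the plakoglobin gene of desmosomes and adherens junctions, had 4093 and 4744 normalized counts in soft col:rBM and 2561 and 3556 in stiff col (log2 fold change -0.55, adjusted p = 0.000578 in limma), without overlap. Further desmosome genes changed by -0.51 (PKP2), -0.43 (PKP3), -0.37 (DSP), -0.31 (DSC2) and -0.28 (DSG3). CDH3, the P-cadherin gene, went from 9385 and 7757 to 6598 and 6125 (-0.42). CDH1, the E-cadherin gene, had 2339 and 2200 normalized counts in soft col:rBM and 1283 and 1823 in stiff col and did not pass the test (-0.57, adjusted p = 0.0806 in limma). Of the tight junction and polarity genes, OCLN had 127 and 41 normalized counts in the soft and 53 and 26 in the stiff gels (-0.94), so that the gels overlapped. CRB3 had 99 and 78 against 47 and 55 (-0.78), without overlap, and CLDN7 changed by -0.34. OVOL1, a transcription factor of epithelial identity, fell from 36 and 30 to 12 and 9 (-1.57). No p is given for it, as only the soft gels, in which it was high, brought it past the filter.

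Of 12 tested mesenchymal genes 2 were higher and 0 lower (16.7% called, against 7.47% of all genes tested), S100A4 (log2 fold change 0.61, from 827 and 995 to 1309 and 1458) and FOXC2 (0.68). VIM had a log2 fold change of -0.16, CDH2 of 0.33, SNAI2 of 0.16 and ZEB1 of 0.15, with adjusted p values between 0.205 and 0.633 in limma. The list's median was 0.046, and it ran from -0.218 to 0.498 over all alternatives.

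Of 13 tested keratins 4 were lower, KRT5, KRT14, KRT15 and KRT6A, and 0 higher (30.8% called, against 7.47% of all genes tested). Several varied widely between trials. KRT15 had 2403 and 6610 normalized counts in soft col:rBM and 717 and 2834 in stiff col (log2 fold change -1.48, adjusted p = 0.000211 in limma). KRT14, a keratin of basal cells, had 1488 and 7616 in the soft and 839 and 4034 in the stiff gels (-0.87), and its partner KRT5 14504 and 32735 against 7417 and 24369 (-0.70). Trial 2 was higher than trial 1 in both gels, so that without stiff col replicate 1 KRT14 stood at 0.26 and KRT5 at 0.16. KRT6A changed by -0.46, and its near-identical relatives may share reads with it. Among the 8 basal markers 5 were lower (KRT5, KRT14, ITGB4, CDH3 and EGFR), a share of 62.5%. TP63 and S100A2 had log2 fold changes of -0.22 and -0.12 and were not called. KRT17, a further basal keratin, was not called either and had the opposite sign, at 2883 and 7944 normalized counts in the soft and 3049 and 13097 in the stiff gels (0.40, adjusted p = 0.291 in limma). The luminal keratins KRT8 and KRT18 had log2 fold changes of -0.17 and -0.24 and were not called. The summed basal markers were lower in stiff col within each trial, at 129033 against 169334 and at 156460 against 188921. The sum includes ITGB4, a hemidesmosome gene, and CDH3, a junction gene, so it is not a separate measure from the fall of those groups. ITGB4 alone went from 59921 and 27008 to 33628 and 15995. The part of the basal markers in the fall of junction and hemidesmosome genes was not tested.

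Genes of the squamous programme showed no common direction. CASP14 (outside the lists), a protease of keratinocyte cornification, had the lowest adjusted p of the comparison. It had 2798 and 865 normalized counts in soft col:rBM and 522 and 204 in stiff col and changed by -2.25 ± 0.09 on the log2 scale (adjusted p = 1.11e-08 in limma). The transglutaminase genes TGM5 and TGM1 changed by -1.63 and -0.88, and S100A8 and S100A9 rose as given above. Of 41 list members only 12 had enough counts to be tested, and S100A7 was at 5 and 2 normalized counts in the soft and 0 and 11 in the stiff gels.

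Of 26 tested NRF2 targets and metallothionein genes, 13 were higher in stiff col, 1 was lower and 12 were not called. The share called was 53.8%, against 7.47% of all genes tested. NRF2 is the transcription factor that induces enzymes of glutathione and NADPH supply under oxidative stress. NQO1, its classical target, had 2815 and 3821 normalized counts in soft col:rBM and 4062 and 5566 in stiff col (log2 fold change 0.54, adjusted p = 0.000263 in limma), with a rise of 0.53 and 0.54 in the separate trials. GCLM of glutathione synthesis, TXNRD1 of the thioredoxin system and PGD of the pentose phosphate pathway rose by 0.67, 0.58 and 0.44, none of them with overlap between gels. The aldo-keto reductase genes AKR1C1, AKR1C2 and AKR1C3, near-identical in sequence, rose by 0.65, 0.84 and 0.56, whereas AKR1B10 changed by -0.85 (225 and 216 against 131 and 113). The metallothionein gene MT1E went from 2596 and 1866 to 5329 and 2664 (0.78) and the ferritin gene FTH1 rose by 0.38. HMOX1 had a log2 fold change of 0.51 and was not called (adjusted p = 0.235).

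Cholesterol synthesis genes were higher by small amounts, 9 of 32 called (28.1%, against 7.47% of all genes tested) and 0 lower. HMGCS1, an early enzyme of the pathway, had 1673 and 1486 normalized counts in soft col:rBM and 3142 and 2393 in stiff col (log2 fold change 0.80, adjusted p = 2.02e-05 in limma). IDI1, MSMO1 and INSIG1 rose by 0.54, 0.53 and 0.36. MSMO1 and INSIG1 had more counts in trial 1 in both gels and stood at -0.20 and -0.17 without stiff col replicate 1, as did the list's median at -0.093. Chaperone genes of the endoplasmic reticulum rose slightly as well, with HSP90B1 at 0.31, DNAJB9 at 0.41, DNAJB11 at 0.36, MANF at 0.35 and HYOU1 at 0.35, while ATF5 changed by -0.44 and VLDLR by -0.59. In that list of 37 genes 6 rose and 4 fell (27.0% called). Among 31 interferon-stimulated genes 4 rose, such as DDX60 (0.65), IFI44L (0.45) and IFITM2 (0.38), and OAS3 changed by -0.34 (16.1% called).

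The 68 YAP target genes listed by the study are relevant because stiffness activates YAP on flat substrates. Of the 63 tested here 8 were higher and 7 lower in stiff col (23.8% called, against 7.47% of all genes tested), with a median of -0.007. CTGF, a canonical target, had 47 and 31 normalized counts in soft col:rBM and 72 and 102 in stiff col, without overlap (log2 fold change 1.15 ± 0.26, adjusted p = 0.0152 in limma). It rose by 0.60 in trial 1 and 1.69 in trial 2. The paper, by ANOVA with Tukey comparisons, reports no difference in its canonical targets, CTGF among them, with col-1 density. It also found YAP in the cytoplasm of cells in stiff col-1 gels. The call of CTGF here comes from another test, paired by trial. TGFB2 went from 32 and 23 to 59 and 63 (1.14) and FGF2 from 120 and 109 to 167 and 210 (0.71). Lower members besides NDRG1 were FSCN1 (-0.51), STMN1 (-0.42) and TNS1 (-0.55). CYR61 had 371 and 297 against 287 and 379 normalized counts and ITGB2 159 and 100 against 208 and 114, and neither passed the test, with adjusted p values of 0.983 and 0.278. ANKRD1 had at most 1 normalized count in each of the 4 libraries, under the limit of 3 reads.

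Actin and contractility genes had no common direction, with 3 of 31 higher and 4 lower (22.6% called, against 7.47% of all genes tested). TAGLN, an actin-binding protein of contractile cells, had 12 and 29 normalized counts in soft col:rBM and 40 and 100 in stiff col (log2 fold change 1.70, adjusted p = 0.000933 in limma), and MYL9, the regulatory myosin light chain, rose by 0.68. The actin genes ACTB and ACTG1 changed by -0.24 and -0.36 and the focal adhesion gene PXN by -0.54, the last from 11557 and 8544 to 7694 and 6043. Of the EGF receptor group EREG, a ligand, rose by 0.76 and HBEGF by 0.65, while EGFR changed by -0.31, the ligand gene TGFA by -0.31 and the feedback genes DUSP6 and ERRFI1 by -0.33 and -0.39. Immediate early genes were lower where called, at -0.53 in JUN (1443 and 1899 against 853 and 1540), -0.51 in ZFP36, -0.39 in FOSL2, -0.36 in IER2 and -0.34 in FOSL1. In the TGF-beta list TGFB1 changed by -0.49 but stood at 0.33 without soft col:rBM replicate 1, ID2 and ID3 changed by -0.51 and -0.36, and LTBP3 rose by 0.37.

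Of 51 tested cell cycle genes 0 rose and 4 fell, namely CENPF (-0.41), RRM2 (-0.33), FOXM1 (-0.32) and the cyclin gene CCND1 (-0.29). This share of 7.84% is near the 7.47% over all genes tested, and 41 of the 51 had a negative log2 fold change. The list's median of -0.164 ran from -0.502 without stiff col replicate 2 to 0.307 without stiff col replicate 1, since trial 2 had more of these transcripts in both gels. Of 79 ribosomal protein and translation genes only RPL8 was called (-0.25), a share of 1.27%.

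Several of the largest changes lay outside these lists. HSD11B1 (hg19 chromosome 1), the enzyme that regenerates active glucocorticoid from cortisone, had 14 and 4 normalized counts in soft col:rBM and 162 and 36 in stiff col. This was the largest rise among genes with a mean of at least 30 normalized counts and no overlap (log2 fold change 3.16 ± 0.30). HSD11B1 reached 10 normalized counts in both stiff libraries but not in both soft ones. It thus passed the filter only through the gels in which it was high, and no p is given for it. LOC102724550 rose by 1.53. The largest fall by the same rule was in FABP4, a fatty acid carrier of adipocytes, with 27 and 117 normalized counts in the soft and 0 and 16 in the stiff gels (-3.80). Only the soft gels, in which it was high, brought FABP4 past the filter, so no p is given for it. As 1 stiff library was at 0, the log2 fold change of FABP4 depends on the pseudocount, at -4.31 with 0.5 and -2.61 with 5, and it ran from -5.84 without stiff col replicate 2 to -1.76 without stiff col replicate 1. Both enzymes of retinoid metabolism among the falls were lower without overlap, ALDH1A2, which makes retinoic acid, at 51 and 59 against 9 and 10 (-2.41) and LRAT, which stores retinol as ester, at 335 and 700 against 82 and 305 (-1.61). ALDH1A2 also passed the filter only through the soft gels, in which it was high. IGFBP3, which binds insulin-like growth factors, fell from 3051 and 2950 to 1148 and 868 (-1.59), with the replicates of each gel close together. The transcription factor gene CUX2 and IFITM10 changed by -1.59 and -1.56.

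The regulators YAP1, WWTR1, STAT3 and EP300 were not called. STAT3 had 2202 and 2288 normalized counts in soft col:rBM and 2227 and 2304 in stiff col, which differ by 0.01 ± 0.07 on the log2 scale (adjusted p = 0.943 in limma). YAP1 stood at 3464 and 4104 against 2981 and 3845 (-0.16) and WWTR1, the gene of TAZ, at 844 and 1062 against 838 and 1063. EP300, the gene of p300, had 433 and 635 normalized counts in the soft and 444 and 519 in the stiff gels (adjusted p = 0.5). These values concern transcripts and not the localization or phosphorylation of the proteins.

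Stiffening of an IPN, in which rBM stays and col-1 is absent, gave a second pair of gels for the same trials and shares no library with the collagen gels. The change in the collagen gels was tested against that in the IPNs over 13369 genes in all 8 libraries. The difference passed the test in 2 genes (0.015%), KRT6B and PGBD5, while 1321 had an unadjusted p under 0.05. KRT6B had 60 and 318 normalized counts in soft col:rBM and 52 and 391 in stiff col, but in the IPNs 51 and 307 when soft and 616 and 3456 when stiff. PGBD5 had 245 and 548 against 145 and 321 in the collagen gels (log2 fold change -0.76) and 74 and 176 against 333 and 878 in the IPNs.

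For the other genes the values in both systems are given side by side. The cytokine list had medians of 0.444 in the collagen gels and 0.509 in the IPNs, and the hypoxia list of -0.298 and -1.035. In the IPNs the trials differed in the hypoxia list, with medians of -0.271 in trial 1 and -1.708 in trial 2. CXCL8 rose by 1.84 in the collagen gels, and its log2 fold changes in the IPNs were 1.22 in trial 1 and 2.84 in trial 2. EGLN3 stood at -0.95 and -5.30 in the IPNs. The junction list had a median of -0.334 in the collagen gels and 0.197 in the IPNs, where OCLN stood at 1.36 and 3.80 and OVOL1 at 2.21 and 2.34 in trials 1 and 2. FN1 stood at -0.62 and -1.30 in the IPNs and SPARC at -0.55 and -1.54. The difference between systems in these genes was not called, with adjusted p values in limma of 0.942 in CXCL8, 0.764 in EGLN3, 0.23 in OCLN, 0.18 in OVOL1, 0.161 in FN1 and 0.145 in SPARC.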

How the data were processed

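RNA was extracted with TRIZOL and a column kit and made into libraries with a TruSeq kit that does not mark strand, so a gene and its antisense partner cannot be told apart. The authors trimmed the reads (Trim Galore 0.3.3), aligned them to hg19, counted them per gene with HTSeq and scaled them with DESeq2 in R 3.2.0. The methods name Bowtie2 and the submitters' processing notes TopHat2 2.0.13 as aligner, and the gene annotation is not given in the sources used here. The deposited values are a signal, read counts that the authors scaled by 1 factor per library and rounded, so no count test was run. The factors were worked out from the values. Of the 25369 symbols, 28 had been turned into dates, and 23010 were placed by GENCODE 44 lifted to hg19.

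Genes with at least 10 normalized counts in at least 2 libraries were tested on log2(normalized count + 1) in limma 3.58.1 (statmod 1.5.0, R 4.3.3) with the trial as a block, a mean-variance trend and robust moderation, and Benjamini-Hochberg adjustment over all genes tested (threshold 0.05). Fold changes on this scale understate the change of low genes. The trial pairs the libraries: the shifts from replicate 1 to replicate 2 correlated across genes in each of the 6 pairs of gels, at r between 0.28 and 0.82, and the methods describe 2 independent trials. Members, gene lists and named genes were chosen with earlier results of these data known. Named were the 10 largest rises and falls among called genes without overlap between gels and with a mean of at least 30 normalized counts, up to 4 called members per list, genes that the study names, and genes called in the test between gel systems. Further list members are given as examples. The 22 gene lists and 5 marker lists were written from general knowledge, except the YAP targets, which are the study's. A detection limit of 3 reads covers counting error only. Python 3.11.15 (pandas 2.3.3, numpy 2.4.6, matplotlib 3.10.9) was used for the tables and plots.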

Additional observations from a re-analysis of the deposited data

Results flagged for a closer look

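In 2 genes the change from the soft to the stiff gel differed between the collagen gels and the IPNs by a test of the difference itself. In KRT6B the change in the collagen gels minus that in the IPNs was -3.48 on the log2 scale (adjusted p = 0.0106 in limma), and in PGBD5 it was -2.99 (adjusted p = 0.0106). The difference had the same sign in both trials in both genes. Neither difference was called without the replicate block, without the mean-variance trend or without any of the 8 libraries. KRT6B is near-identical to KRT6A and KRT6C, so the division of reads among them is uncertain. With 2 libraries per gel, outlying libraries within a gel could not be tested for.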

How the results depend on the processing

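Calls between the collagen gels depended on the pairing of the trials, on the mean-variance trend and on the filter. Against 970 genes, 0 were called without the replicate block, 0 in a fit of all 8 libraries with the replicate block (lowest adjusted p 0.0867 in limma), 0 without the trend and 16 with a filter of at least 1 normalized count in 1 library (18085 genes tested). The counts were 992 and 1006 with pseudocounts of 0.5 and 5, 1187 with at least 10 normalized counts in every library, 966 and 764 after median-of-ratios and upper-quartile rescaling and 745 without robust moderation. Without any of the 4 libraries, in fits that lose the pairing by construction, 0 genes were called in each (from 69 to 151 at an unadjusted p under 0.05). In the difference between systems, 2 genes became 0 without the replicate block, 0 without the trend and 6 with the looser filter, and from 0 to 0 without any library (from 111 to 790 at an unadjusted p under 0.05). The causes were not tested where the fit itself does not give them.

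Of the 93 named genes called, 22 changed sign in some alternative. Upper-quartile rescaling turned CYR61 to 0.0025 and WWTR1 to 0.0073. All other reversals came from leaving out a library. The log2 fold change then ran from -0.28 to 1.18 in ITGA10, -1.20 to 3.04 in ITGB3, -0.33 to 1.54 in LEPREL2, -1.50 to 0.34 in LEPREL1, -1.04 to 0.0916 in LOX and -1.23 to 0.34 in LOXL2. It ran from -2.05 to 0.31 in KRT14, -1.55 to 0.16 in KRT5, -0.99 to 0.0796 in KRT6A, -1.85 to 0.10 in TGM1, -1.31 to 0.33 in TGFB1 and -0.17 to 0.91 in LTBP3. It ran from -0.44 to 1.74 in HBEGF, -1.13 to 0.11 in ZFP36, -1.01 to 0.33 in OAS3, -0.20 to 1.25 in MSMO1, -0.17 to 0.90 in INSIG1 and -1.95 to 0.10 in ENO2. It ran from -0.96 to 0.15 in CENPF, -1.02 to 0.36 in RRM2, -0.95 to 0.31 in FOXM1, -0.53 to 0.0209 in RPL8, -0.21 to 0.19 in CYR61 and -0.14 to 0.72 in ITGB2. It ran from -0.34 to 0.0282 in YAP1, -0.18 to 0.17 in WWTR1, -0.0145 to 0.0408 in STAT3, -0.40 to 0.15 in EP300 and -1.40 to 1.49 in KRT6B. List medians changed sign in some alternative in 16 of 22 lists. Genes near the limit of 3 reads, such as MMP9 and CYP2D7P, are measured least precisely at this depth.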

Other observations

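Further genes outside the lists moved between the collagen gels, and those that follow were chosen after their values were seen. Several are known to respond to interleukin-1 or to NF-kB. SOD2, the mitochondrial superoxide dismutase, had 2224 and 2226 normalized counts in soft col:rBM and 5896 and 4678 in stiff col, a log2 fold change of 1.24 (adjusted p = 5.53e-07 in limma). NFKBIZ, an inducible NF-kB cofactor, rose from 329 and 252 to 651 and 473 (0.94), the alarmin gene IL33 from 248 and 207 to 634 and 388 (1.13) and KYNU of tryptophan breakdown from 1372 and 1612 to 3082 and 3311 (1.10). NAMPT, which makes a precursor of NAD, rose by 0.93 and the arginine transporter gene SLC7A2 by 1.36. IL1RL1, the receptor for IL-33, rose from 607 and 60 to 2241 and 139, by 1.88 in trial 1 and 1.20 in trial 2.

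Among the falls, PGF, a growth factor of the VEGF family, had 111 and 532 normalized counts in soft col:rBM and 46 and 195 in stiff col (log2 fold change -1.35, adjusted p = 4.7e-05 in limma). The gap junction gene GJB2 fell from 1316 and 8034 to 612 and 2950 within the trials (-1.27), and MALL, a raft-associated membrane protein, from 1878 and 1521 to 698 and 604 (-1.38). The calcium pump gene ATP2C2 went from 351 and 70 to 83 and 20 (-1.91) and the creatine transporter gene SLC6A8 from 6573 and 4367 to 2855 and 2395 (-1.03). SPINK6, an inhibitor of kallikreins, fell from 51 and 36 to 3 and 10 (-2.73), while its log2 fold changes in the IPNs were 3.41 and 4.58. It passed the filter of the collagen gels only through the soft gels, in which it was high.

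In 2 genes both soft col:rBM libraries were at or under 3 reads, so that they entered the test only through the stiff gels, in which they were high, and their calls support nothing. RARRES1, a gene induced by retinoids, had 2 normalized counts in each soft library and 25 and 11 in the stiff ones, at least 5.62-fold higher against this limit. CYP2D7P had 1 and 2 against 11 in each stiff library, at least 3.44-fold higher. HSD11B1, MMP9, FABP4, ALDH1A2, OVOL1 and SPINK6 also passed the filter only through the gel in which they were high. Their calls support nothing either.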
